A study of Mus musculus with 9 samples.

Results

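The 10 genes described here encode cytokines of the leukemia inhibitory factor (LIF) family, their receptors and the JAK-STAT3 pathway inside the cell. They were taken by gene symbol from the 48679 names of the count table, and all 10 were found: the ligands Lif, Clcf1, Cntf and Osm, the receptors Lifr and Osmr, the kinase Jak2, the transcription factor Stat3 and the inhibitors Socs1 and Socs3. The RNAseq data comprised 9 samples of C57BL/6J mice 12 weeks old, each a pool of 6 retinas of 6 mice, so n counts pools and not mice. In 3 RVO pools all veins of the eye had been closed by laser after an injection of the photosensitizer eosin Y, and in 3 control pools the fellow eyes had received the same laser scheme between the large vessels. Both kinds of eye were taken at d2, so the control eyes share the laser damage, the anesthesia and the eosin Y but not the targeting of veins. In the laser model a treated vein can reopen, and the state of the veins is not given for the pools. The 3 untreated pools received no laser, and whether those mice received eosin Y is not given in the sources used here. All libraries were from poly-A RNA of whole retina, in which fewer cells of a type and less RNA per cell cannot be told apart.

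Cytokines of this family bind receptor complexes that contain gp130, the product of Il6st. LIF and cardiotrophin-like cytokine (Clcf1) signal through gp130 and the LIF receptor, oncostatin M (Osm) through gp130 and the oncostatin M receptor, and ciliary neurotrophic factor (Cntf) and Clcf1 also need the non-signalling receptor Cntfr. The receptors activate JAK kinases, which phosphorylate STAT3, and STAT3 then induces Socs3, whose protein blocks the receptor complex and so limits the signal. In the retina, LIF from Mueller glia is known as a factor that protects photoreceptors and activates glia after injury.

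The upstream sequences of Lif and Socs3, the ligand and the inhibitor with the largest changes against untreated eyes that were not lower bounds, are shown with the letters for which promoters were searched. They are from RefSeq (GRCm38.p6), read 5′ to 3′ on the strand of the gene, and stop where GENCODE places an exon of the gene. The Lif sequence is chr11:4257318-4257556 on the plus strand, with an AP-1 motif (TGANTCA) at position -228 from the RefSeq start in capitals. The Socs3 sequence is chr11:117969452-117969616 on the minus strand, which is upstream of the RefSeq start but inside the Socs3 gene of GENCODE, which holds a transcript that starts farther upstream, with a STAT motif (TTCNNNGAA) at position -154 in capitals.
Lif: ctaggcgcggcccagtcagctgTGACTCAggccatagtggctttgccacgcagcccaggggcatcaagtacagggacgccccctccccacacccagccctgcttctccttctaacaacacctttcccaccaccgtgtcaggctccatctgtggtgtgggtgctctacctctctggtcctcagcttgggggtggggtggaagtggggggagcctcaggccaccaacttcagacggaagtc
Socs3: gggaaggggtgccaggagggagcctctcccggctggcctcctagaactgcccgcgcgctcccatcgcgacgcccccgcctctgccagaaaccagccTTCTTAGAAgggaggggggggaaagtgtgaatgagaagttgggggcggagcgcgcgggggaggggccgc
Both motifs were searched on both strands from 250 bases before to 50 bases after the start, each reads the same on either strand, and no gene named here held both. Promoters were given for 8 of the 10 genes, with none for Clcf1 and Osm. The STAT letters were found for Socs3 and the AP-1 letters for Lif, Cntf and Osmr. Among all 32851 RefSeq promoters, 8.298% held the STAT letters and 7.808% the AP-1 letters. A match is a description of the sequence and not a binding site.

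Total counts per pool were 21022997 to 28993921 in RVO eyes, 18897218 to 23419497 in control eyes and 12377572 to 15245869 in untreated eyes, so genes of low expression were measured with less precision in untreated eyes. Levels are given as CPM, counts per 1e6 counts of the library after scaling by edgeR's TMM factors. Groups were compared pair by pair with edgeR's quasi-likelihood test, and a gene was counted as changed at a Benjamini-Hochberg adjusted p under 0.01 over all genes tested. The rod markers (6 genes, among them Gnat1) summed to between 41900 and 82900 CPM in every pool, so the libraries carried the markers of retina. RVO pool 2 stood apart from the other RVO pools, with 7 lens genes summing to 4030 CPM against 131 and 308 CPM, and control pool 1 had 2220 CPM against 235 and 152 CPM. Among the RVO pools, pool 2 was the lowest for 8 of the 10 genes (not for Cntf and Osmr), and among the control pools, pool 2 was the highest for 9 of the 10 genes (not for Socs1). For the 10 genes, and for calls between RVO and control retinas, those that are lost when a pool is left out are named with the results. For the other listed genes against untreated retinas, no results with pools left out are given.

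Most genes of the pathway were higher in both kinds of laser-treated retinas. Between RVO and untreated retinas 9 of the 10 genes were tested, of which 7 were higher, 0 were lower and 2 (Lifr and Jak2) were not called. Of all 16380 genes tested, 27.4% were higher and 24.6% lower. Between control laser-treated and untreated retinas 8 genes were tested, 6 were higher and Jak2 alone was lower, against 27.2% higher and 25.2% lower of all 16066 genes tested. Among the genes called higher, Osm (RVO retinas only) and Socs1 (both comparisons) had at most 3 counts in each untreated pool. They passed the filter on low counts only through the laser-treated pools and could not be called lower. The median log2 fold change of the 9 tested genes was 4.96 for RVO retinas, or 3.14 with Osm and Socs1 set at their lower bounds. For the 8 genes tested in control retinas it was 2.75, also with Socs1 at its lower bound. The medians over all genes tested were 0.00811 and 0.0129. Both comparisons use the same untreated pools.

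Between RVO and control laser-treated retinas 9 genes were tested and all 9 had a higher fitted level in RVO retinas, but only Lif and Clcf1 passed the threshold (2 higher, 0 lower). Of all 16874 genes tested, 2.7% were higher and 0.634% lower. At an adjusted p under 0.05, 8 of the 9 genes were higher and 0 lower, against 17.5% and 17.1% of all genes. In the same 8 genes each RVO pool was above each control pool, as it was for 26.7% of all genes tested. Only Osm overlapped between these groups among the tested genes. The median log2 fold change of the 9 genes was 0.776 and that of all genes was 0.0192.

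**Figure D1:**
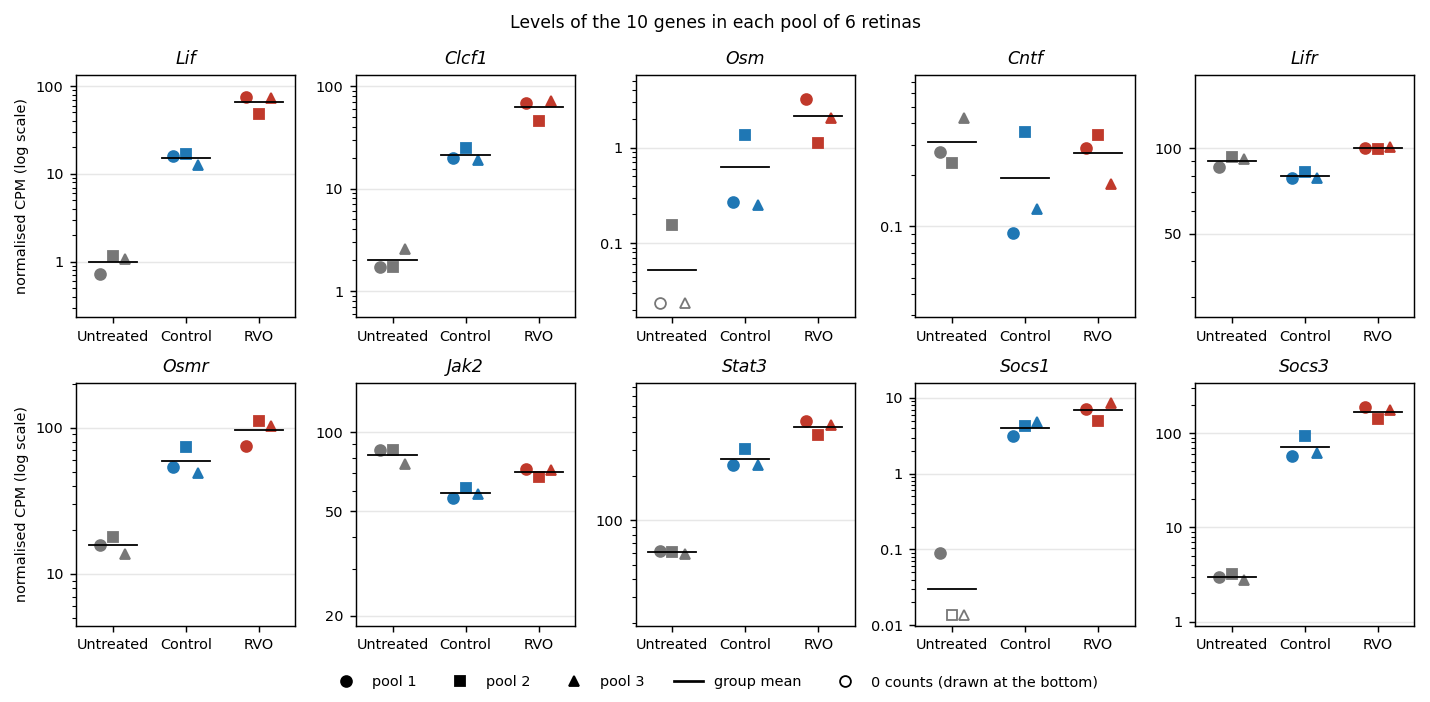
Normalised CPM (log axis, own range for each gene) of the 10 genes in each of 9 pools; symbols give the pool number, lines the group means and open symbols 0 counts. Lif, Clcf1, Osmr, Stat3, Socs1 and Socs3 rise in steps from untreated to control to RVO pools without overlap, whereas the Cntf groups overlap.

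Lif, a cytokine that injured retina makes, had levels of 0.727, 1.17 and 1.07 CPM in the untreated pools, 15.8, 17.0 and 12.6 CPM in the control pools and 75.1, 48.0 and 72.5 CPM in the RVO pools. The 3 groups did not overlap, and RVO pool 2 was the lowest of its group. RVO retinas had 66.0-fold more Lif than untreated retinas (log2 fold change 6.04 ± 0.26 SE, edgeR adjusted p = 2.73e-06), and only 0.556% of the genes tested had a larger log2 fold change. It was 15.1-fold higher in control laser-treated than in untreated retinas (3.92 ± 0.20 SE, edgeR adjusted p = 3.43e-08). Between RVO and control retinas Lif was 4.32-fold higher in RVO retinas (2.11 ± 0.20 SE, edgeR adjusted p = 0.00564), with 0.498% of genes above it. This call was lost without RVO pool 3 or without any 1 of the 3 control pools, with adjusted p up to 0.0373 and log2 fold changes between 1.98 and 2.27 over all pools left out. The gene lies at chr11:4257557-4272514 on the plus strand (GRCm38), next to Osm at chr11:4236420-4241026 on the same strand.

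Clcf1, which encodes a cytokine that acts on the CNTF receptor complex, had 1.73, 1.72 and 2.57 CPM in the untreated pools, 19.9, 25.0 and 18.8 CPM in the control pools and 68.0, 46.0 and 72.1 CPM in the RVO pools. All RVO pools were above all control pools and these above all untreated pools. The gene was 31.2-fold higher in RVO retinas (4.96 ± 0.24 SE, edgeR adjusted p = 4.19e-06) and 10.5-fold higher in control retinas (3.40 ± 0.18 SE, edgeR adjusted p = 3.79e-08) than in untreated retinas. RVO retinas were 2.93-fold above control retinas (1.55 ± 0.19 SE, edgeR adjusted p = 0.00731), a call that was kept without RVO pool 2 and lost without any other RVO or control pool (adjusted p up to 0.0538, log2 fold changes between 1.42 and 1.71). Clcf1 lies at chr19:4214238-4223490 on the plus strand, and 311 of its 3806 exon bases are shared with another gene of the annotation, which is not among the names of the count table.

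Osm, a cytokine made mainly by leukocytes, was rare in all groups. It had 0, 2 and 0 counts in the untreated pools, 6, 27 and 6 counts in the control pools and 101, 26 and 46 counts in the RVO pools. These correspond to 0.272, 1.37 and 0.251 CPM in control retinas and 3.22, 1.11 and 2.03 CPM in RVO retinas, and control pool 2 lay above RVO pool 2. The mean level of Osm was higher in RVO by a factor of at least 8.80 than in untreated retinas (edgeR adjusted p = 0.000906), which does not hold for RVO pools 2 and 3 alone. Such lower bounds are for the mean of the laser-treated pools, are set against 3 counts in each untreated pool and cover counting error only. In control retinas its mean level was at least 2.62-fold above untreated retinas, without a test as it did not pass the filter on low counts. That bound rests on control pool 2 (27 counts) and does not hold for control pools 1 and 3 alone, which had 6 counts each. In RVO against control retinas the log2 fold change of 1.82 ± 0.65 SE did not pass the threshold (edgeR adjusted p = 0.0653). It ranged from 1.35 without RVO pool 1 to 3.02 without control pool 2 (adjusted p = 0.187 and 0.0325), and the call was made without RVO pool 2 (2.12, adjusted p = 0.00957).

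Cntf, the survival factor of neurons after which the receptor complex is named, was at the limit of detection. The untreated pools had 3, 3 and 6 counts, the control pools 2, 7 and 3 counts and the RVO pools 9, 8 and 4 counts. The groups overlapped and the gene was not tested in any comparison. Of its 1073 exon bases, 847 (78.938%) are shared with exons of Zfp91 on the same strand, so reads from most of the gene may not have been assigned to it, and its level is uncertain.

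Lifr, the receptor for LIF, was not called in any comparison. It had 85.6, 93.4 and 92.0 CPM in the untreated pools, 78.5, 82.8 and 78.5 CPM in the control pools and 99.95, 99.4 and 101 CPM in the RVO pools. RVO pools were thus the highest and control pools the lowest, with no overlap between the 3 groups and differences of at most 1.26-fold. The log2 fold changes were 0.18 ± 0.07 SE for RVO against untreated retinas (edgeR adjusted p = 0.0409), -0.16 ± 0.06 SE for control against untreated retinas (edgeR adjusted p = 0.0245) and 0.33 ± 0.06 SE for RVO against control retinas (edgeR adjusted p = 0.0117), none of which passed the threshold. With libraries scaled by their size alone, the first was 0.39 and passed the threshold, and the second turned to 0.0143.

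Osmr, the receptor for oncostatin M, had 15.7, 17.8 and 13.7 CPM in the untreated pools, 53.6, 73.7 and 48.8 CPM in the control pools and 75.2, 112 and 102 CPM in the RVO pools. The groups did not overlap, although RVO pool 1 was close to control pool 2. Osmr was 6.26-fold higher in RVO retinas (2.65 ± 0.17 SE, edgeR adjusted p = 1.2e-05) and 3.79-fold higher in control retinas (1.92 ± 0.15 SE, edgeR adjusted p = 4.74e-07) than in untreated retinas. Against control retinas the 1.64-fold difference (0.72 ± 0.19 SE) did not pass the threshold (edgeR adjusted p = 0.0263). Relative to Lifr, per kb of exon, Osmr stood at 0.163, 0.169 and 0.132 in the untreated pools, at 0.607, 0.792 and 0.553 in the control pools and at 0.669, 0.998 and 0.900 in the RVO pools. The ratio of the receptors was higher in every laser-treated pool than in every untreated pool, whereas RVO and control pools overlapped.

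Of the 4 other receptor subunits of the family that were tested, 3 were higher in both kinds of laser-treated retinas and Cntfr was not called. Il6st had a mean of 142 ± 4.0 CPM in untreated, 233 ± 36 CPM in control and 319 ± 23 CPM in RVO retinas (SD, n = 3). It was higher than in untreated retinas in RVO retinas (log2 fold change 1.20, edgeR adjusted p = 1.18e-05) and in control retinas (0.73, edgeR adjusted p = 1.65e-05), whereas its difference between RVO and control retinas was not called (0.46, edgeR adjusted p = 0.0234). Cntfr, the CNTF-binding subunit, had 42.2 ± 4.3 CPM in untreated, 48.4 ± 0.41 CPM in control and 36.7 ± 5.0 CPM in RVO retinas and was not called in any comparison (adjusted p = 0.0237 for control and 0.23 for RVO against untreated retinas and 0.0206 for RVO against control retinas). Il6ra, which binds interleukin 6, rose from 1.03 ± 0.22 CPM to 2.61 ± 0.38 CPM in control and 5.93 ± 1.65 CPM in RVO retinas (edgeR adjusted p = 0.000511 and 0.000183). Il11ra1, which binds interleukin 11, rose from 14.8 ± 0.63 CPM to 19.6 ± 0.29 CPM in control and 20.1 ± 1.6 CPM in RVO retinas (edgeR adjusted p = 0.000742 and 0.00451). Il27ra was not tested.

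Jak2, a kinase bound to these receptors, had 85.5, 85.3 and 75.9 CPM in the untreated pools, 56.4, 61.3 and 58.2 CPM in the control pools and 72.4, 67.4 and 71.7 CPM in the RVO pools. All laser-treated pools were below all untreated pools, and the control pools were the lowest. Jak2 was lower in control than in untreated retinas (log2 fold change -0.47 ± 0.06 SE, 1.38-fold, edgeR adjusted p = 3.62e-05). In RVO retinas the log2 fold change against untreated retinas was -0.19 ± 0.08 SE and was not called (edgeR adjusted p = 0.0626), and it was 0.0242 when libraries were scaled by their size alone. When RVO and control retinas were compared, the log2 fold change was 0.27 ± 0.07 SE and was not called (edgeR adjusted p = 0.0211).

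Stat3, the transcription factor of the pathway, had 62.4, 60.9 and 59.4 CPM in the untreated pools, 238, 306 and 237 CPM in the control pools and 474, 381 and 444 CPM in the RVO pools. The groups were apart, and the untreated pools were close to each other. Stat3 was 7.26-fold higher in RVO (2.86 ± 0.10 SE, edgeR adjusted p = 1.28e-06) and 4.33-fold higher in control retinas (2.11 ± 0.10 SE, edgeR adjusted p = 1.65e-08) than in untreated retinas. The 1.67-fold difference between RVO and control retinas (0.74 ± 0.13 SE) was just above the threshold (edgeR adjusted p = 0.011), passed it without RVO pool 2 (adjusted p = 0.000329) and had adjusted p up to 0.0578 with other pools left out. Per kb of exon, the ratio of Stat3 to Jak2 was 0.386, 0.377 and 0.413 in the untreated pools, 2.23, 2.63 and 2.15 in the control pools and 3.46, 2.99 and 3.27 in the RVO pools. Thus Jak2 was the more abundant transcript in each untreated pool and Stat3 in each laser-treated pool.

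Socs3, the feedback inhibitor that STAT3 induces, had 3.00, 3.21 and 2.79 CPM in the untreated pools, 57.2, 94.7 and 61.7 CPM in the control pools and 189, 141 and 177 CPM in the RVO pools. The lowest RVO pool was above the highest control pool. Socs3 was 57.5-fold higher in RVO (5.85 ± 0.16 SE, edgeR adjusted p = 9.61e-07) and 24.0-fold higher in control retinas (4.59 ± 0.22 SE, edgeR adjusted p = 2.07e-08) than in untreated retinas. Between RVO and control retinas the log2 fold change was 1.25 ± 0.20 SE, or 2.38-fold, with an edgeR adjusted p of 0.0102, which missed the threshold. It passed without RVO pool 2 (1.35, adjusted p = 0.000248), and leaving out other pools gave adjusted p up to 0.0566. The Socs3 gene lies at chr11:117966079-117970047 on the minus strand.

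Socs1, which inhibits JAK kinases directly and is known mainly from interferon signalling, was almost absent from untreated retinas with 1, 0 and 0 counts. It had 69, 83 and 114 counts in the control pools (3.12, 4.2 and 4.78 CPM) and 221, 117 and 197 counts in the RVO pools (7.05, 4.97 and 8.67 CPM). RVO pool 2 was only slightly above control pool 3. The level was at least 28.7-fold higher in RVO (edgeR adjusted p = 2.77e-05) and at least 16.8-fold higher in control retinas (edgeR adjusted p = 4.74e-07) than in untreated retinas. In RVO against control retinas the log2 fold change of 0.78 ± 0.25 SE was not called (edgeR adjusted p = 0.0465).

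**Figure D2:**
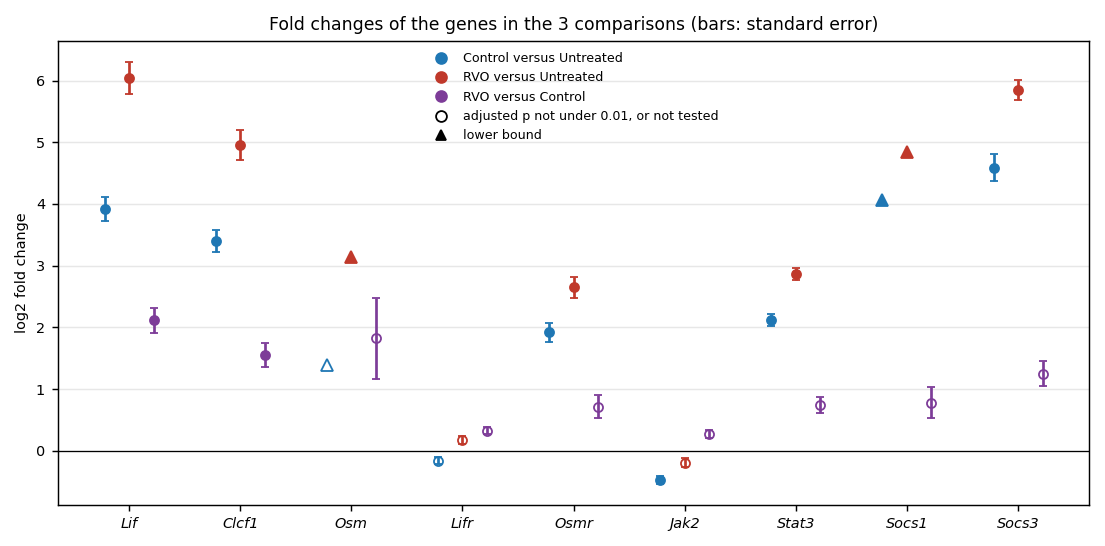
Log2 fold changes (points, with SE as bars) of the 9 genes with enough counts in the 3 comparisons; filled symbols are called at an edgeR adjusted p under 0.01 and triangles are lower bounds where untreated pools had at most 3 counts each. Lif and Socs3 have the largest values that are not lower bounds (6.04 and 5.85 for RVO against untreated), and between RVO and control retinas only Lif and Clcf1 are filled.

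Levels per kb of exon allow the genes to be set in order within a group. In untreated retinas Jak2 (16.4 CPM per kb), Lifr (8.38) and Stat3 (6.40) led, followed by Osmr (1.30), Socs3 (1.04), Clcf1 (0.527), Cntf (0.291), Lif (0.228), Osm (0.0229) and Socs1 (0.0104). The pools of neighbours in this order overlapped for Cntf and Lif and for Osm and Socs1. In control retinas the order of the first was Stat3 (27.3), Socs3 (24.6), Jak2 (11.7), Lifr (7.42), Clcf1 (5.57), Osmr (4.85) and Lif (3.48), with overlap between Stat3 and Socs3 and between Clcf1 and Osmr. The last were Socs1 (1.39), Osm (0.277) and Cntf (0.177), with overlap between the last pair.

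In RVO retinas Socs3 (58.4 CPM per kb) and Stat3 (45.4) led, with overlapping pools, followed by Clcf1 (16.3), Lif (15.0), Jak2 (14.0), Lifr (9.29) and Osmr (7.95). Clcf1 overlapped with Lif and Lif with Jak2. Socs1 (2.37), Osm (0.932) and Cntf (0.250) were the lowest. Socs3 relative to Stat3 was 0.158, 0.173 and 0.155 in untreated, 0.792, 1.02 and 0.859 in control and 1.32, 1.22 and 1.31 in RVO pools, without overlap of the groups. Lif relative to Clcf1 was below 1 in every pool, with 0.368, 0.597 and 0.365 in untreated, 0.698, 0.595 and 0.585 in control and 0.966, 0.912 and 0.881 in RVO pools. The exon length is that of all annotated transcripts together, so a gene with long unused exons is placed too low.

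**Figure D3:**
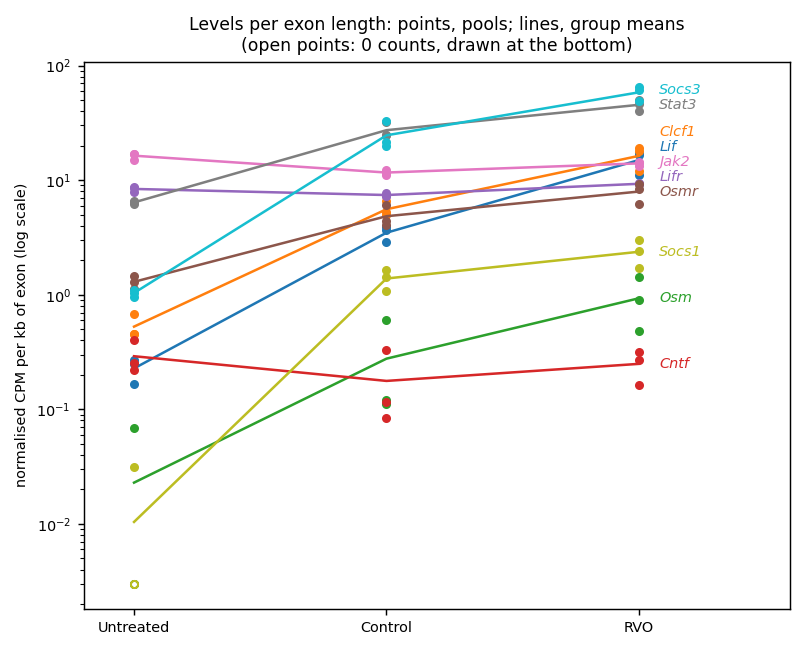
Normalised CPM per kb of exon (log axis) of the 10 genes in the 3 groups; points are pools and lines join group means. Jak2 leads in untreated retinas at 16.4 CPM per kb, whereas Socs3 and Stat3 lead in RVO retinas at 58.4 and 45.4 CPM per kb.

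How far the comparison of RVO with control retinas rests on single pools was examined by leaving out each pool in turn. All 9 tested genes kept a positive log2 fold change in each of these fits. The number of the 9 genes called higher was between 0 and 8. It was 8 without RVO pool 2, 1 (Lif) without RVO pool 1 and 0 without RVO pool 3 or any of the control pools. Over all genes tested, edgeR called 563 with all pools, 6257 without RVO pool 2 and 29 without RVO pool 1. Without RVO pool 3 it called 0, with 6100 genes at an unadjusted p under 0.05, and without control pools 1, 2 and 3 it called 1, 0 and 0, with 6299, 6916 and 6311 at an unadjusted p under 0.05. Every call between RVO and control retinas named here, those of Stat6 and the STAT3 targets included, was thus lost without RVO pool 3 and without control pool 2 or 3.

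**Figure D4:**
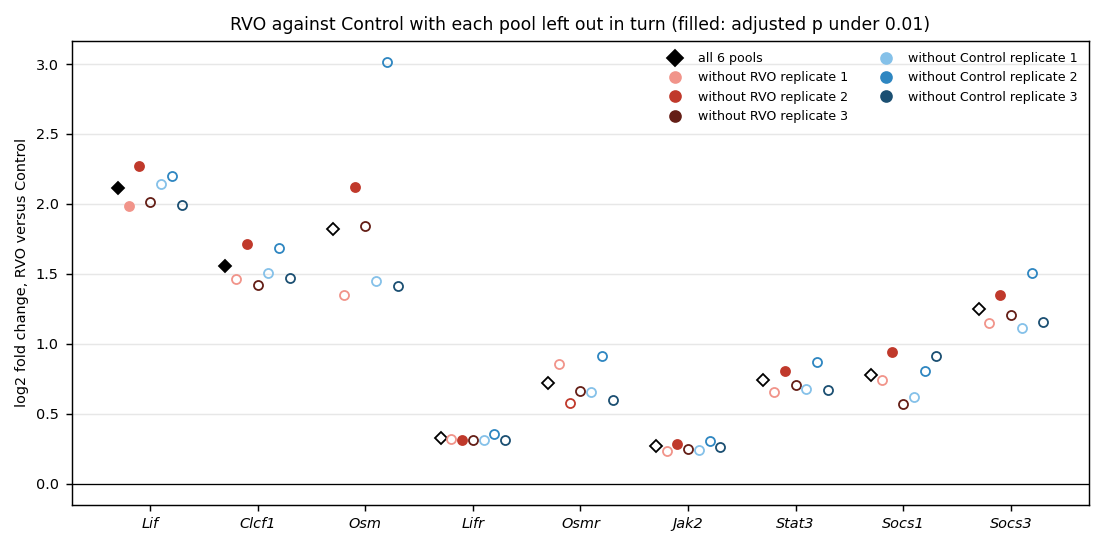
Log2 fold change between RVO and control retinas for 9 genes with all 6 pools (diamonds) and with each pool left out (circles); filled symbols have an edgeR adjusted p under 0.01. All values are above 0, and without RVO pool 2 the symbols of 8 genes are filled, whereas with all pools 2 are.

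The other genes of the pathway were taken from a list of 34. Between RVO and untreated retinas 31 were tested, 19 were higher and 6 lower, and the median log2 fold change was 0.65. Between control and untreated retinas 31 were tested, 21 were higher and 6 lower, with a median of 0.54. Against control retinas 32 were tested, 2 were higher and 0 lower, with a median of 0.175, and at an adjusted p under 0.05 the numbers were 10 higher and 3 lower. Of the 31 genes tested against untreated retinas, 3 had at most 3 counts in each untreated pool and could not be called lower. The shares of all genes are given above with the first count of each comparison.

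Among the other ligands of gp130 receptors, Il11 had at most 3 counts in each untreated pool and was higher by a factor of at least 23.6 in RVO and at least 13.4 in control retinas (edgeR adjusted p = 0.000152 and 2.09e-05), whereas RVO and control retinas did not differ past the threshold (log2 fold change 0.84 ± 0.46 SE, adjusted p = 0.188). Il27 had 0 counts in untreated retinas and was higher by a factor of at least 5.26 in RVO and at least 4.82 in control retinas. Ebi3, its partner subunit, was called higher in control retinas (1.5, adjusted p = 0.0016), with 1.19 and an adjusted p of 0.0318 in RVO retinas, and these groups did not differ past the threshold (adjusted p = 0.468). Ctf1 (cardiotrophin 1) was not called in any comparison, with 3.91 ± 0.49 CPM in untreated, 3.82 ± 0.085 CPM in control and 4.10 ± 0.70 CPM in RVO retinas. Il6 was too rare to be tested against untreated retinas, at 0.560 ± 0.15 CPM for RVO and 0.428 ± 0.27 CPM for control retinas.

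Of the other JAK kinases, Jak3, a kinase known from leukocytes, rose from 1.78 ± 0.60 CPM in untreated to 25.4 ± 4.2 CPM in control and 42.8 ± 5.0 CPM in RVO retinas (SD, n = 3, edgeR adjusted p = 3.53e-08 and 3.37e-06). Jak1 fell from 211 ± 10 CPM to 164 ± 5.7 CPM in control and 149 ± 7.2 CPM in RVO retinas (edgeR adjusted p = 0.000147 and 0.000544). Tyk2 was higher in both (log2 fold change 0.56 and 0.65). Of 5 other STAT factors tested, 5 were higher in control retinas, and in RVO retinas 4 were higher and Stat5b was lower. Stat5b had 50.5 ± 2.9 CPM in untreated, 58.6 ± 1.3 CPM in control and 29.5 ± 9.4 CPM in RVO retinas, and its log2 fold change was 0.23 in control (edgeR adjusted p = 0.00571) and -0.75 in RVO retinas (edgeR adjusted p = 0.00933). Its difference of -0.99 ± 0.19 SE for RVO against control retinas was not called (edgeR adjusted p = 0.0132).

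Stat6, which carries interleukin 4 signals, was the only STAT factor called between RVO and control retinas, a call lost without RVO pool 3 and without control pool 2 or 3. It had 10.6 ± 0.56 CPM in untreated, 14.9 ± 0.95 CPM in control and 23.8 ± 2.1 CPM in RVO retinas, a 1.60-fold difference between RVO and control retinas (0.68 ± 0.10 SE, edgeR adjusted p = 0.00943). Of 10 other SOCS and PIAS inhibitors, 4 rose and 4 fell in RVO retinas (Cish, Pias4, Socs7 and Socs5 against Pias1, Socs4, Pias2 and Socs6), and the same genes and Socs2, which rose, were called in control retinas. Cish, a target of STAT5, had the largest of these changes (log2 fold change 2.43 in RVO and 1.62 in control retinas). Of 4 phosphatases of the pathway, Ptpn1 and Ptpn11 rose in both, Ptpn6 rose in RVO retinas and Ptpn2 was lower in control retinas (-0.30, adjusted p = 0.00261).

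Genes known as targets of STAT3 were higher in both kinds of laser-treated retinas. Of 21 listed targets, 20 rose and 0 fell in RVO retinas, against 27.4% and 24.6% of all genes tested, and the median log2 fold change was 3.38. In control retinas 20 rose and 0 fell, against 27.2% and 25.2% of all genes tested, with a median of 2.55. Birc5, an inhibitor of apoptosis, was the one not called (adjusted p = 0.0948 and 0.0145). Several of these genes are induced by other factors too, and several, like Lif, Socs1 and Socs3, were listed by the study from these samples, so their direction is not independent evidence. Against untreated retinas Lcn2, an iron-binding protein of reactive glia and neutrophils, was 114-fold higher in RVO and 27.5-fold higher in control retinas. Timp1, an inhibitor of matrix proteases, was at least 185-fold and at least 103-fold higher. Timp1 and Lrg1 had at most 3 counts in each untreated pool and could not be called lower against them.

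Between RVO and control retinas 5 of the 21 targets were higher and 0 lower, against 2.7% and 0.634% of all genes tested, and the median log2 fold change was 0.85. At an adjusted p under 0.05, 17 were higher, against 17.5% of all genes. The 5 were Myc (5.87-fold, adjusted p = 0.00944), Ccnd1 (4.09-fold, adjusted p = 0.00672), Junb (3.46-fold, adjusted p = 0.00566), Cebpb (2.51-fold, adjusted p = 0.00601) and Cebpd (2.50-fold, adjusted p = 0.0086), which encode regulators of transcription and, for Ccnd1, of the cell cycle. All 5 calls were lost without RVO pool 3 and without any 1 of the control pools, and 1 and 17 targets were called without RVO pools 1 and 2. Gfap, the filament of reactive glia, and Lrg1 had fitted values below 0 (-0.46 and -0.03), which were not called (adjusted p = 0.134 and 0.931). Gfap stood at 21 ± 0.24 CPM in untreated, 294 ± 71 CPM in control and 214 ± 50 CPM in RVO retinas. Edn2 and Fgf2, which are known to follow LIF in injured retina and of which Edn2 was named after its values were seen, had log2 fold changes of 6.17 and 3.46 in RVO and 5.42 and 2.69 in control retinas against untreated retinas. When RVO and control retinas were compared, they had 0.73 and 0.77, which were not called (adjusted p = 0.0216 and 0.0228).

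**Figure D5:**
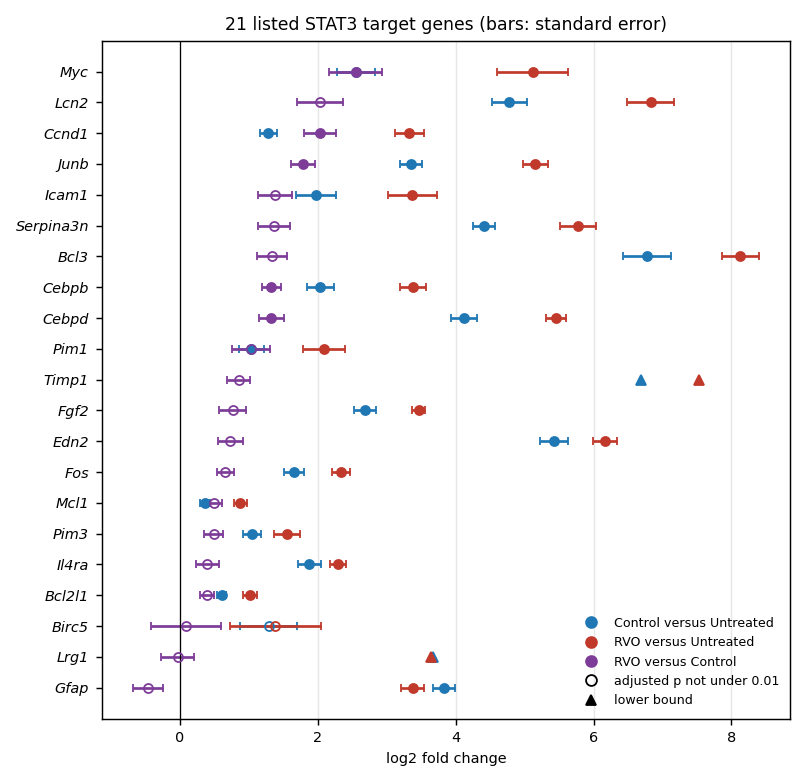
Log2 fold changes (points, with SE as bars) of 21 listed STAT3 target genes in the 3 comparisons, in the order of their value between RVO and control retinas; filled symbols are called at an edgeR adjusted p under 0.01. Of the 21 genes, 20 are filled on the right side for RVO and for control against untreated retinas, and 5 between RVO and control retinas.

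Promoters were given for 18 of the 21 targets, with none for Myc, Ccnd1 and Cebpd. The STAT letters were found in Gfap (TTCCAGGAA at position -2) and Icam1 (TTCCCGGAA at position -42), and the AP-1 letters in 0 of them. The window is short and no match says only that the letters are not in it.

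The genes whose log2 levels over the 9 pools were most like those of Lif by Pearson's r, among 17103 genes, were Arpc1b (0.998), Mgat4b (0.998), Itga5 (0.998), Inf2 (0.998) and Dnajb2 (0.997). For Socs3 they were Fgf2os (0.998), Sh2d3c (0.998), Cebpd (0.998), Fgf2 (0.998) and Bmp1 (0.998). The 9 pools form 3 groups, so these values describe mainly the order of the groups.

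The summed markers of neutrophils, of monocytes and macrophages and of leukocytes in general were higher in every laser-treated pool than in every untreated pool. The 7 neutrophil markers summed to 0.547 to 1.18 CPM in untreated pools, where 3 of the 7 were at 0, to 22.3, 24.3 and 8.13 CPM in the control pools and to 95.7, 45.5 and 102 CPM in the RVO pools. RVO pool 2 was the lowest of its group here and control pool 2 the highest of its own. Of the 7 markers 4 were tested, and all 4 were higher in both laser-treated groups than in untreated ones, against 27.4% (RVO) and 27.2% (control) of all genes tested. S100a8, S100a9 and Cxcr2 had at most 3 counts in each untreated pool. They passed the filter on low counts only through the laser-treated pools and could not be called lower, so their direction is no separate result. The 6 monocyte and macrophage markers summed to 4.07 to 4.91 CPM in untreated pools, where 1 of the 6 was at 0, to 26.8 to 39.4 CPM in control and to 64.8 to 80.6 CPM in RVO pools. Of these, 5 of 6 tested were higher in RVO and 4 of 5 in control than in untreated retinas. Ccr2 and Ly6c2 had at most 3 counts in each untreated pool and could not be called lower against them. Lyz2 and F13a1 were called higher in RVO than in control retinas, which was lost without RVO pool 3 and without control pool 2 or 3. For the monocyte and macrophage sum, the RVO pools had 64.8, 71.4 and 80.6 CPM in the order of their numbers, and control pool 2 was the highest control pool (39.4 CPM). The 5 general leukocyte markers summed to 16.3 to 27.2 CPM in untreated, 34.4 to 45.4 CPM in control and 55.0 to 66.4 CPM in RVO pools, with 4 of 5 (all but Laptm5) higher in either laser-treated group. Here too RVO pool 2 was the lowest RVO pool (55.0 CPM) and control pool 2 the highest control pool (45.4 CPM). The 5 T cell markers summed to at most 0.553 CPM in any pool and none was tested. The part of these cells in the levels of the pathway genes was not tested.

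Markers of resident cell types also differed between the groups. The 6 Mueller glia markers summed to 4330 to 4580 CPM in untreated, 2680 to 3300 CPM in control and 1530 to 2290 CPM in RVO pools, with Glul, Rlbp1 and Aqp4 called lower in both laser-treated groups and Kcnj10 called higher in control retinas. The lower sum in control pools was mostly that of Glul, at 2601 ± 87 CPM in untreated, 1255 ± 334 CPM in control and 652 ± 87 CPM in RVO retinas (SD, n = 3), and 3 of the 6 markers had log2 fold changes above 0 in control retinas. The 6 microglia markers summed to 96.4 to 147 CPM in untreated, 49.5 to 58.0 CPM in control and 31.0 to 51.6 CPM in RVO pools, and 4 of 6 were called lower in either laser-treated group. Of all genes tested, 24.6% were lower in RVO and 25.2% in control than in untreated retinas. The 6 rod markers summed to 81100 to 82900 CPM in untreated, 52000 to 63600 CPM in control and 41900 to 45800 CPM in RVO pools, and 6 of 6 were lower in RVO and 4 of 6 in control retinas. The 5 retinal ganglion cell markers were at 865 to 908, 705 to 744 and 195 to 456 CPM in the same order, with 5 of 5 lower in RVO and 4 of 5 in control retinas. RVO pool 2 was the highest RVO pool for the sums of ganglion cell (456 against 195 and 254 CPM) and Mueller glia markers (2290 against 1530 and 1800 CPM). It was also the highest for microglia (51.6 against 31.0 and 34.9 CPM) and endothelial markers (242 against 133 and 178 CPM), but not for astrocyte markers (112 against 93.1 and 126 CPM).

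The 3 astrocyte markers summed to 22.7 to 25.8 CPM in untreated, 65.1 to 104 CPM in control and 93.1 to 126 CPM in RVO pools, with Aldh1l1 alone called higher in both. The higher sum was mostly that of Aldh1l1, with means of 13.6, 70.0 and 104.5 CPM in the same order. Pax2 and S100b were not called. All RVO pools were below all untreated pools for S100b (log2 fold change -0.95, edgeR adjusted p = 0.0175). The 5 endothelial markers summed to 146 to 152, 286 to 319 and 133 to 242 CPM in that order, with 3 of 5 higher in RVO and 5 of 5 in control retinas. Of all genes tested, 27.4% were higher in RVO and 27.2% in control retinas. The endothelial sum was mostly that of Kdr, with means of 128, 254 and 148 CPM in untreated, control and RVO retinas. In the same order Cdh5 had 3.67, 9.71 and 10.2 CPM and Pecam1 10.8, 15.5 and 16.3 CPM, whereas Cldn5 and Tie1 were highest in control retinas. The 5 pigment epithelium markers summed to 277 to 304, 193 to 223 and 165 to 353 CPM, with Rpe65 lower in both and Rgr lower in control retinas. The lens genes were at 2.79 to 22.6 CPM in untreated pools and varied among laser-treated pools as given above, with 3 of 5 tested higher in RVO and 6 of 6 in control retinas. Of these 6, Mip had 0 counts in untreated pools and could not be called lower. The part of these cells in the levels of the pathway genes was not tested either.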

How the data were processed

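RNA of whole retina was sequenced in 9 samples (3 RVO, 3 control laser-treated, 3 untreated), grouped by their labels. According to the methods and the submitters' processing notes, the authors mapped the reads with STAR 2.5.2b to mouse Gencode vM11 and counted them per gene with featureCounts (Subread 1.5.1). They deposited raw counts by gene symbol, without normalization. Libraries were strand-specific, but the strand setting of the counting and the treatment of reads matching several genes are not given in the sources used here, so values of genes with shared exons are uncertain. Of the 48679 names, 92 were spike-in controls with 0 counts. Gene coordinates were taken from GENCODE vM21 (GRCm38).

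Tests were run with edgeR 4.0.16 (R 4.3.3). Every pair of groups was fitted alone, with the filterByExpr filter, TMM scaling and the quasi-likelihood test, with Benjamini-Hochberg adjustment over all genes tested. The biological coefficient of variation was 13.8% (RVO and untreated), 7.49% (control and untreated) and 14.4% (RVO and control). The chi-square per degree of freedom between pools of 1 group was 3.15 to 54.1, above sampling noise, and each pool was counted as 1 sample. P-values measure the spread between pools. If no pool of a group exceeded 3 counts, folds were set against 3 counts per library and are lower bounds for counting error only. CPM values were scaled over all 9 samples.

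The 10 genes, the lists of pathway genes, STAT3 targets and cell markers, and the tests were chosen with earlier results of these data known. Named were all 10 genes, the gp130 receptors, listed genes called between RVO and control eyes, members of counts of 5 or fewer, and the 5 genes most like Lif and Socs3 by Pearson's r. Alternatives were scaling by library size, DESeq2 1.42.0, no filter, a fit of all 9 samples, the replicate block, an adjusted p under 0.05 and each pool left out. Some listed genes are counted with their lists but their own results are not reported here. The procedure was also run on simulated counts. In these no pool stood apart from its group, so they do not cover the dependence on single pools given above.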

Additional observations from a re-analysis of the deposited data

How the results depend on the processing

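The log2 fold changes of 9 of the 10 genes (all but Cntf, and Osm in 2 of the 3 comparisons) were computed under 338 combinations of gene, comparison and alternative, of which 295 kept direction and side of the threshold, 30 newly passed it, 11 no longer passed it and 2 turned direction (Jak2 in RVO against untreated eyes, 0.0242, and Lifr in control against untreated eyes, 0.0143, both when libraries were scaled by size alone). That scaling moved the median of all genes to 0.221 and 0.186 in the comparisons of RVO and of control with untreated eyes and to 0.0694 between RVO and control eyes, and the causes were not tested further. The 7 and 6 genes called higher against untreated eyes stayed within 1.5 times of their numbers. The number lower in control eyes was 2 at an adjusted p under 0.05 and between 1 and 2 with each pool left out (2 without untreated pool 1, with Lifr added).

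Between RVO and control eyes the number of the 10 genes called higher (2) was 5 with library size alone, 6 with DESeq2, 5 with no filter, 6 in the fit of all 9 samples, 8 at an adjusted p under 0.05 and between 0 and 8 with each pool left out. The number of all genes called (563) was 892, 4038, 3309, 3853 and 5836 in these settings in the same order, and between 0 and 6257 with each pool left out. Where edgeR called 0 genes without RVO pool 3, 6100 had an unadjusted p under 0.05. RVO and control pools came from fellow eyes, but no source states that pools of the same number held the same mice, and the deviations of same-numbered pools correlated at -0.131, -0.148 and 0.0711, so the numbers were not taken as pairs. The replicate block gave 0 of the 10 genes and 0 of all genes (7227 with an unadjusted p under 0.05) between RVO and control eyes, and changed no call of the 10 genes against untreated eyes. Lower depth limits the precision of Osm and Socs1 in untreated eyes, and Cntf had few counts in all eyes.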
